A study of Homo sapiens with 5 samples.

Results

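The mRNA of 9 genes that sense stress or restrain the kinase mTOR was followed in RPE1 cells treated with doxorubicin. The genes were SESN1, SESN2, SESN3, DDIT4, PRKAB1, TSC1, TSC2, DEPTOR and MTOR itself. They were chosen by symbol, for their place in the pathway, with earlier results of these data known. All 9 were found among the 26485 genes of the count table. SESN1 and SESN2 rose about 5-fold in doxorubicin, each with all treated libraries above both control libraries. PRKAB1, DDIT4 and TSC2 had higher means without passing the threshold, SESN3 had a lower mean with overlapping libraries, and TSC1, DEPTOR and MTOR showed no difference beyond the spread between libraries.

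The 5 RNA-seq libraries were made from RPE1, a widely used human line derived from retinal pigment epithelium, all of genotype WT and all harvested after 18 h of treatment. There were 2 libraries of control cells given DMSO, the solvent, 2 of cells given 0.2 μM doxorubicin and 1 of cells given 0.34 μM doxorubicin. Doxorubicin is an anthracycline that intercalates into DNA and poisons topoisomerase II, leaving double-strand breaks. The concentrations are those of the sample labels, whereas the labels' description of the treatment gives 200 and 340 μM. All libraries came from 1 cell line, and the lone library at 0.34 μM has no replicate of its own. Libraries of one treatment are described as biological replicates in the methods, with no further detail of how the cultures were kept apart, and the p-values given here measure the spread between these libraries.

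Sestrins are stress-inducible proteins, and Sestrin2 binds leucine. In the unbound state they hold GATOR2. This hold keeps the Rag GTPases from recruiting mTORC1, the growth-promoting mTOR complex, to the lysosome. SESN1 and SESN2 are known targets of the tumour suppressor p53, SESN2 also of the stress factor ATF4, and SESN3 of FOXO factors. A separate brake is the TSC1-TSC2 complex, which switches off RHEB, the GTPase that activates mTORC1. TSC2 is switched on by AMPK, the energy sensor of which PRKAB1 encodes a regulatory β subunit, and is released from inhibition by REDD1, the product of DDIT4. DEPTOR binds mTOR directly and inhibits it.

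Promoter sequences of the genes that rose are shown first, for SESN1 and SESN2, so that their start regions can be compared. RefSeq's promoter table for GRCh38.p14 holds 11 promoters for 8 of the 9 genes, of which 3 belong to SESN1. The 250 bases before the most downstream of the SESN1 starts (chr6:109008989-109009238, minus strand) and before the SESN2 start (chr1:28259268-28259517, plus strand) read 5′ to 3′ as follows, with a match to the p53 half-site, the decamer of which p53 binds pairs, in capitals.
SESN1: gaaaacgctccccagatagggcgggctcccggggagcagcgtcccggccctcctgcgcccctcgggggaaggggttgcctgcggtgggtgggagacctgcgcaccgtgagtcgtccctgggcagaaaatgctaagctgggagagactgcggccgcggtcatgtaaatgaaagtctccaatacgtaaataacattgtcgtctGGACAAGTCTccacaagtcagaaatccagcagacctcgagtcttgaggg
SESN2: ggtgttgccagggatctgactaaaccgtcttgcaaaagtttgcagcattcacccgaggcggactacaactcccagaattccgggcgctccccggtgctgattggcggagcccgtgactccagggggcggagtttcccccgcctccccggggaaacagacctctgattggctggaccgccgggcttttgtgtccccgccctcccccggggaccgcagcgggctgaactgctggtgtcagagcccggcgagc
The SESN1 match, GGACAAGTCT, lies at bases -49 to -40 before the start, and the SESN2 sequence holds none. Among windows of 300 bases, each with 250 before and 50 after a start, and searching both strands, the p53 half-site was found in 6.63% of 35116 promoters and in 1 of the 11 promoters of these genes. The other SESN1 promoters, which are not printed, held none. The ATF4-type letters TGATGNAA were found in 3.62% of all promoters and the E-box CACGTG in 7.26%, and among these genes both occurred for TSC2. The forkhead letters TGTTTAC were found in 3.42% of all promoters and for none of these genes. The motifs were searched separately, and a match here describes letters in a window and not binding.

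Raw counts on genes summed to between 23773061 and 36725345 per library, and TMM normalization factors lay between 0.975 and 1.04. Levels are given as CPM, the counts scaled to the same library total after TMM normalization. Of 14187 genes that passed the filter on low counts, all 9 were among those tested. The libraries of one condition were not alike: chi-square per degree of freedom was 117 between the DMSO libraries and 75.3 between the 0.2 μM libraries, yet 9.01 between the 0.34 μM library and the first 0.2 μM library. It was 74.1 between the 0.34 μM library and the second 0.2 μM library, so that the 0.34 μM library was far closer to the first library at 0.2 μM than the libraries at that dose were to each other. Of 11 retinal pigment epithelium markers, MITF, OTX2, KRT8 and KRT18 reached 1 CPM in every library, and RPE65, RLBP1, TYR and TTR were at or near 0. The summed level of the 11 was 638 to 784 CPM in DMSO and 1051 to 1249 CPM in doxorubicin, most of it KRT8 and KRT18. On the log2 scale, doxorubicin over DMSO, KRT8 differed by 0.87 and KRT18 by 0.63, but MITF by only 0.05 and OTX2 by -0.02. The higher sum in doxorubicin thus mostly reflects the 2 keratins. Of the 7 markers tested, 5 had a higher and 2 a lower estimate, with a median of 0.63. The extremes were PMEL with 2.29, at no more than 1.33 CPM in any library, and SERPINF1 with -1.04, at no more than 1.14 CPM. Markers of blood cells summed to 0.191 to 0.353 CPM in DMSO and 1.08 to 2.25 CPM in doxorubicin, nearly all of it PTPRC, and 2 of the 6, CD3E and HBB, had no count. Those of fibroblasts and endothelium (3 of 8 at 1 CPM or more in every library) summed to 173 to 437 CPM in DMSO and 140 to 394 CPM in doxorubicin. The part of these markers in the results was not tested, and in bulk libraries fewer cells carrying an mRNA and less of it per cell cannot be told apart.

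The main question was how these genes changed between DMSO and doxorubicin, and the 3 treated libraries were pooled for it. Differences are log2 fold changes of edgeR's quasi-likelihood fit, doxorubicin over DMSO, with the standard error (SE), and p-values were adjusted by the Benjamini-Hochberg method over all genes tested. At an adjusted p under 0.01, 2 of the 9 genes were called, both higher, against 4.02% of all genes tested, or 1.29% counting only higher and 2.73% counting only lower genes. Of the 9 genes, 7 had a positive and 2 a negative difference (MTOR, at nearly 0, took either sign with the setting), with a median of 0.43 beside 0.01 over all genes tested. Doxorubicin and DMSO libraries did not overlap for 4 of the 9, all higher in doxorubicin, a separation that 47.7% of all genes showed in either direction and 24.3% in this direction.

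**Figure D1:**
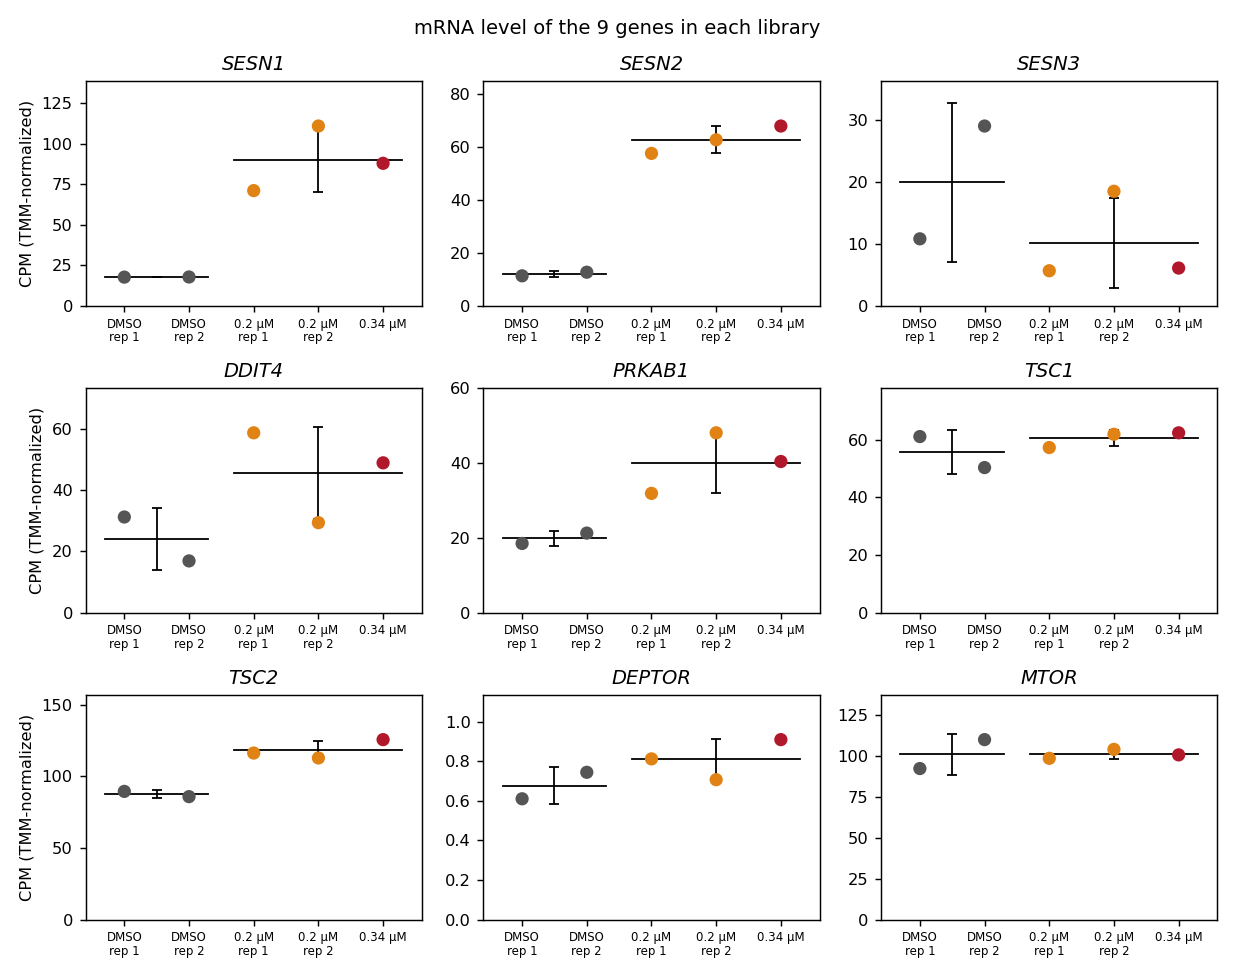
Level of each of the 9 genes in CPM (vertical axes start at 0 and differ between panels), with 1 point per library (grey DMSO, orange 0.2 μM, red 0.34 μM), the group mean as a line and the SD as a bar (DMSO n = 2, doxorubicin n = 3). SESN1, SESN2, PRKAB1 and TSC2 have all doxorubicin points above both DMSO points, while those of SESN3 and DDIT4 overlap and lie far apart within a condition.

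Among the sestrins, SESN1 (chr6:108984309-109094846) had 17.8 and 17.9 CPM in the DMSO libraries, 71.2 and 111 CPM at 0.2 μM and 88.0 CPM at 0.34 μM. The DMSO libraries were nearly equal, and the lowest doxorubicin library stood far above them, although the 0.2 μM libraries differed between themselves by 0.64 on the log2 scale. Its mean was 17.9 ± 0.0602 CPM in DMSO (SD, n = 2) and 90.1 ± 20.0 CPM in doxorubicin (SD, n = 3). SESN1 rose 5.04-fold, a log2 fold change of 2.33 (SE 0.23, 95% interval 1.79 to 2.88, adjusted p = 0.00208 by edgeR). It was the 214th largest rise of the 14187 genes. The call was lost without the first DMSO library (adjusted p = 0.0168) or the second (0.0221), with the log2 fold change between 2.16 and 2.48 whichever library was left out. The gene overlaps ARMC2 on the GRCh38 annotation, whose own log2 fold change was -0.54 (adjusted p = 0.337), and the sources used here do not say whether counting used the strand.

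SESN2 (chr1:28259518-28282491), the leucine-binding sestrin, had 11.4 and 12.8 CPM in DMSO, 57.7 and 62.8 CPM at 0.2 μM and 68.0 CPM at 0.34 μM. This was the tightest of the large differences, with all 3 treated libraries close together and well apart from the controls. The group means were 12.1 ± 0.964 CPM (SD, n = 2) and 62.8 ± 5.17 CPM (SD, n = 3). SESN2 rose 5.20-fold, a log2 fold change of 2.38 (SE 0.17, 95% interval 1.97 to 2.79, adjusted p = 0.000891 by edgeR), the 205th largest rise and the 53rd smallest p of all genes tested. The call was lost without the second DMSO library (adjusted p = 0.0110, log2 fold change between 2.29 and 2.44 whichever library was left out). SESN2 overlaps no other annotated gene.

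SESN3 (chr11:95165513-95232475), the FOXO-regulated sestrin, went the other way in its mean. It had 10.8 and 29.0 CPM in DMSO, 5.68 and 18.5 CPM at 0.2 μM and 6.12 CPM at 0.34 μM. The second library was the higher in both conditions that have a pair, by 1.42 on the log2 scale in DMSO and 1.69 at 0.2 μM, and the second 0.2 μM library exceeded the first DMSO library. The log2 fold change was -0.98 (SE 0.62, 95% interval -2.45 to 0.48, adjusted p = 0.329), so that the spread between libraries of one condition was larger than the difference between treatments. With 1 library left out it ranged from -1.75, without the second 0.2 μM library, to -0.13, without the second DMSO library.

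Per kilobase of transcript, the scale on which levels of different genes can be set side by side, the 3 sestrins together amounted to 7.57 and 9.88 CPM per kilobase in DMSO and to 29.8, 39.7 and 35.8 CPM per kilobase in doxorubicin. The treated libraries thus held more sestrin mRNA in all, and its makeup differed as well. SESN3 made up 14.96% and 30.7% of it in the DMSO libraries and 1.99%, 4.87% and 1.79% in the doxorubicin libraries. SESN1 made up 32.0% to 41.5% in DMSO and 42.1% to 49.4% in doxorubicin, and SESN2 37.3% to 43.5% and 45.7% to 55.9%. The share of SESN3 was lower in every treated library than in either control, although its own level overlapped, and a share depends on the other sestrins as well.

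**Figure D2:**
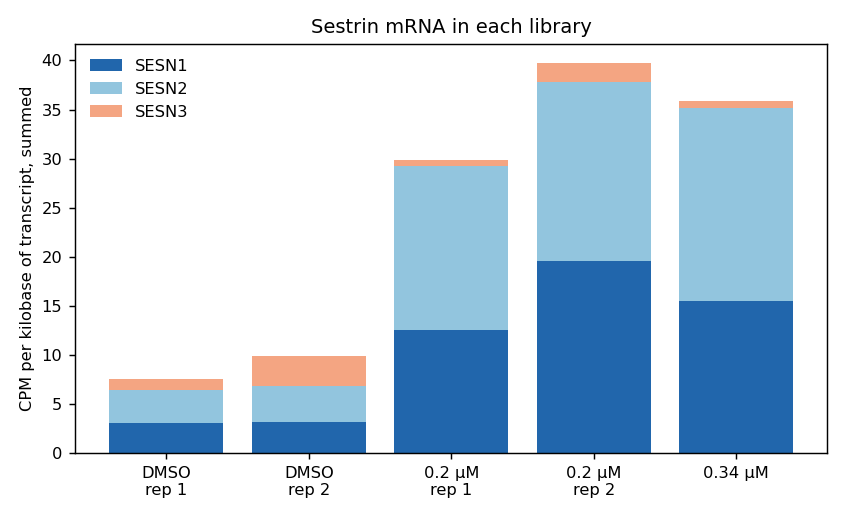
Summed level of the 3 sestrin mRNAs in each library, in CPM per kilobase of transcript (axis from 0), with the part of each sestrin in its own colour. The bars stand at 7.57 and 9.88 in DMSO and between 29.8 and 39.7 in doxorubicin, and the SESN3 segment is the smallest in all 5 libraries.

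DDIT4 (chr10:72273924-72276036), which encodes REDD1, an activator of the TSC complex induced by hypoxia, glucocorticoids and DNA damage, had 31.2 and 16.9 CPM in DMSO, 58.7 and 29.4 CPM at 0.2 μM and 48.9 CPM at 0.34 μM. The second library was the lower in both pairs, by 0.88 on the log2 scale in DMSO and 1.00 at 0.2 μM, the reverse of SESN3, and the second 0.2 μM library fell just below the first DMSO library. Its log2 fold change was 0.92 (SE 0.37, 95% interval 0.04 to 1.80, adjusted p = 0.147), from 24.1 ± 10.1 CPM (SD, n = 2) to 45.7 ± 14.9 CPM (SD, n = 3). The difference did not pass the threshold, and with 1 library left out it ranged from 0.53, without the second DMSO library, to 1.43, without the first.

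PRKAB1 (chr12:119667952-119681619), the β1 subunit of AMPK and a known p53 target, had 18.5 and 21.3 CPM in DMSO, 31.9 and 48.0 CPM at 0.2 μM and 40.4 CPM at 0.34 μM. All treated libraries were above both controls. The means were 19.9 ± 1.96 CPM (SD, n = 2) and 40.1 ± 8.08 CPM (SD, n = 3), a log2 fold change of 1.01 (SE 0.22, 95% interval 0.49 to 1.53). Its adjusted p was 0.0284 with edgeR and 0.0326 with limma voom, above the threshold, and 0.000654 with DESeq2, which called 3 of the 9 genes, all higher, against 14.1% of the genes it tested, or 6.37% counting only higher genes. PRKAB1 overlaps an antisense gene, PRKAB1-AS1, so a part of its counts could be antisense.

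The 2 subunits of the TSC complex were unequal. TSC2 (chr16:2047985-2089491), which carries the GTPase-activating domain, had 89.6 and 85.9 CPM in DMSO, 116 and 113 CPM at 0.2 μM and 126 CPM at 0.34 μM. The libraries within a condition differed by no more than 0.06 on the log2 scale, and the groups did not overlap. The log2 fold change of TSC2 was small, 0.43 (SE 0.14, 95% interval 0.11 to 0.75), with an adjusted p of 0.0810 by edgeR and 0.0460 by DESeq2, above the threshold with both. Reads of PKD1, which overlaps TSC2 at its end, could be among these counts, and PKD1 itself differed by 0.14 (adjusted p = 0.780).

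TSC1 (chr9:132891349-132945378), which stabilizes TSC2, had 61.0 and 50.3 CPM in DMSO, 57.2 and 61.8 CPM at 0.2 μM and 62.3 CPM at 0.34 μM. All doxorubicin values lay within or just above the range of the controls. Its log2 fold change was 0.12 (SE 0.15, 95% interval -0.24 to 0.48, adjusted p = 0.646).

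MTOR (chr1:11106535-11262551), the kinase itself, had 92.3 and 110 CPM in DMSO, 98.5 and 104 CPM at 0.2 μM and 101 CPM at 0.34 μM. The treated libraries fell between the controls. The means were 101 ± 12.5 CPM (SD, n = 2) and 101 ± 2.75 CPM (SD, n = 3), and the 95% interval of the log2 fold change was -0.34 to 0.34 (adjusted p = 0.997). MTOR overlaps 6 annotated genes, among them MTOR-AS1 and ANGPTL7, whose reads could be among its counts.

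DEPTOR (chr8:119873722-120050918) was the least abundant of the 9, with 16 and 19 counts in the DMSO libraries, 21 and 17 at 0.2 μM and 33 at 0.34 μM. These amounted to 0.610 and 0.744 CPM in DMSO, 0.812 and 0.707 CPM at 0.2 μM and 0.909 CPM at 0.34 μM. The groups overlapped, and the 95% interval of its log2 fold change of 0.26 was wide, from -0.68 to 1.20 (SE 0.39, adjusted p = 0.702). With so few counts and libraries, a difference within these bounds can be neither shown nor excluded.

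**Figure D3:**
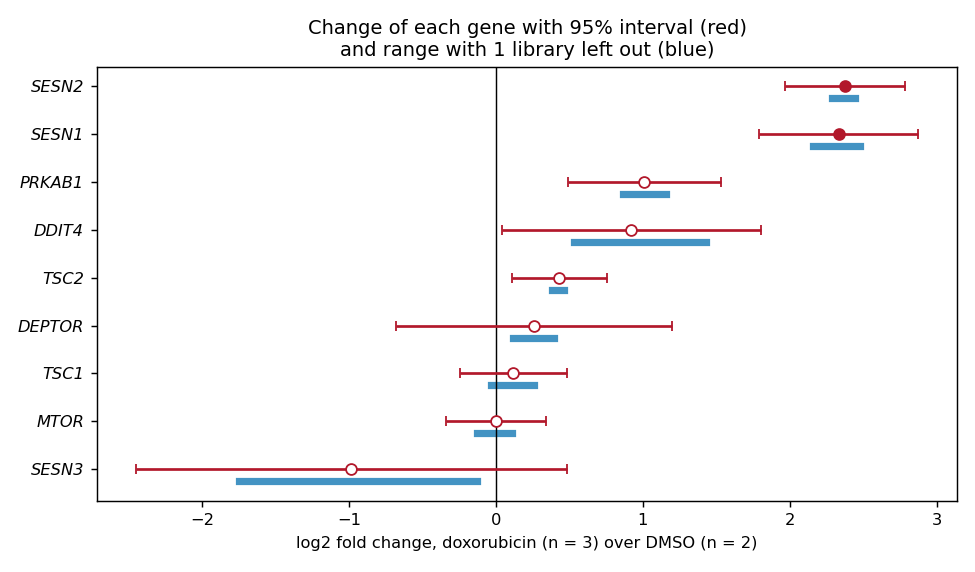
Log2 fold change of the 9 genes, doxorubicin over DMSO, with the 95% interval in red (filled circles for adjusted p under 0.01 by edgeR) and the range of the estimate when 1 library was left out in blue. SESN1 and SESN2 lie above 1.79 over their whole intervals, and the estimate of SESN3 moves most, from -1.75 to -0.13.

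A simple yardstick of the spread is the difference between the 2 libraries of a condition on the log2 CPM scale. The difference between treatments was larger than the difference within the DMSO pair and within the 0.2 μM pair for 4 of the 9 genes, as it was for 39.3% of all genes tested. These were the same 4 genes whose groups did not overlap, SESN1, SESN2, PRKAB1 and TSC2. For DDIT4 the treatment difference of 0.93 on this scale stood between the within-pair differences of 0.88 and 1.00, and for SESN3 both pairs differed by more than the treatments. In each of these genes both pairs differed in the same direction. The yardstick takes no account of a possible pairing by replicate number, which the labels do not establish.

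Set per kilobase of transcript, the 9 genes changed order. In DMSO the means ran from DDIT4 with 13.8 ± 5.79 and TSC2 with 13.7 ± 0.405 CPM per kilobase, whose libraries overlapped, through MTOR with 11.6 ± 1.43, PRKAB1 with 8.96 ± 0.882 and TSC1 with 6.47 ± 0.884, to the sestrins and DEPTOR (SD, n = 2 each). SESN2 with 3.49 ± 0.278, SESN1 with 3.15 ± 0.0106 and SESN3 with 2.08 ± 1.34 followed, and DEPTOR was last with 0.264 ± 0.0368 CPM per kilobase. From TSC2 downwards each gene's libraries lay apart from those of the next. In doxorubicin the first 5 places were held by DDIT4 with 26.1 ± 8.53, TSC2 with 18.4 ± 1.03, SESN2 with 18.2 ± 1.49, PRKAB1 with 18.1 ± 3.64 and SESN1 with 15.9 ± 3.53 CPM per kilobase (SD, n = 3 each), and neighbours among them overlapped. MTOR with 11.6 ± 0.316, TSC1 with 7.03 ± 0.327, SESN3 with 1.06 ± 0.761 and DEPTOR with 0.315 ± 0.0394 followed, each apart from the next. SESN1 and SESN2 thus moved from below TSC1 and MTOR to above both. Among the 12831 tested genes with a known transcript length, the mean level of SESN1 stood at percentile 32.7 in DMSO and 70.9 in doxorubicin, and that of SESN2 at 34.6 and 74.2.

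**Figure D4:**
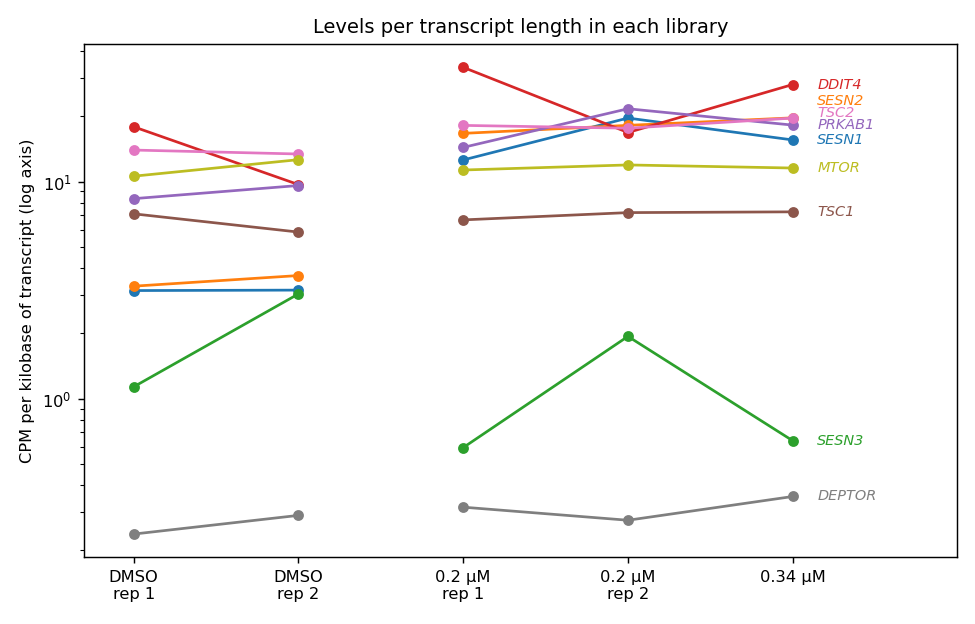
Level of the 9 genes in CPM per kilobase of transcript on a log axis, with 1 point per library and lines joining the libraries of DMSO and of doxorubicin. SESN1 and SESN2 lie near 3 in DMSO and between 12.6 and 19.7 in doxorubicin, while DEPTOR is the lowest gene in every library.

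The question of dose was addressed in a fit of 3 conditions, in which the lone 0.34 μM library was assumed to vary like the others. Against DMSO, 2 of the 9 genes were called at 0.2 μM (1.21% of all genes) and 1 at 0.34 μM (0.627% of all genes). SESN1 had a log2 fold change of 2.35 (SE 0.28, adjusted p = 0.00721) at 0.2 μM and 2.30 (SE 0.31, adjusted p = 0.0155) at 0.34 μM. SESN2 had 2.32 (SE 0.23, adjusted p = 0.00384) and 2.49 (SE 0.26, adjusted p = 0.00658). Both comparisons share the DMSO libraries, so that these values are not independent of each other. For the remaining genes the log2 fold changes at 0.2 and 0.34 μM were -0.72 and -1.70 for SESN3, 0.87 and 1.02 for DDIT4, 1.01 and 1.02 for PRKAB1, 0.39 and 0.52 for TSC2, 0.10 and 0.16 for TSC1, 0.17 and 0.42 for DEPTOR, and 0.00 and -0.01 for MTOR. None of these passed the threshold. At 0.2 μM the value of SESN3 ranged from -1.81, without the second 0.2 μM library, to 0.13, without the second DMSO library, and that of DDIT4 from 0.28, without the first 0.2 μM library, to 1.37, without the first DMSO library. At 0.34 μM SESN3 ranged from -2.24 without the first DMSO library to -0.83 without the second, and DDIT4 from 0.64 without the second to 1.53 without the first. The count at 0.2 μM was 0 without the first DMSO or the second 0.2 μM library and 1 without the second DMSO library, and that at 0.34 μM was 0 without either DMSO library and 2 without either 0.2 μM library.

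Between the doses themselves, no gene of the 9 and none of all 14187 was called by edgeR (0%), and 22 genes (0.155%) had an unadjusted p under 0.05, none of them among the 9. DESeq2 and limma voom called none of the 9 either, also at an unadjusted p under 0.05. The log2 difference of 0.34 over 0.2 μM was -0.05 for SESN1 (95% interval -0.82 to 0.72), 0.18 for SESN2 (-0.46 to 0.81), 0.02 for PRKAB1 (-0.78 to 0.82) and 0.15 for DDIT4 (-1.04 to 1.34). SESN3 had the largest difference between doses of the 9 genes, -0.98 (-2.91 to 0.95). It was -1.57 without the first 0.2 μM library, where edgeR's unadjusted p was 0.0220 and its adjusted p 1.00, and 0.11 without the second. DDIT4 was 0.77 without the first 0.2 μM library and -0.26 without the second. With 1 library at the higher dose these intervals are wide, and the doses are not shown to act alike. The 0.34 μM library was also far closer to the first 0.2 μM library than to the second. A difference between doses therefore cannot be told apart from one between these libraries.

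The wider pathway was described through 8 lists of mTOR pathway genes compiled from general knowledge, with earlier results of these data known. They held 95 genes with the 9 included. Apart from the 9, 83 of 86 genes were tested, of which 43 had a higher and 40 a lower estimate, with a median of 0.04 beside 0.01 over all genes. PHLDA3 rose and EIF4EBP1 fell, so that 2 of the 83 (2.41%) passed the threshold against 4.02% of all genes. The mTOR complexes (12 genes) held no call, with 5 higher and 7 lower estimates and a median of -0.01. Its extremes were PRR5 with 1.07 at under 0.45 CPM in every library and AKT1S1, an mTORC1 inhibitor, with -0.60 (adjusted p = 0.0795). Among the TSC complex and RHEB (5 genes, 3 higher, 2 lower, median 0.12, no call) RHEB had the lowest estimate and TBC1D7 the highest with 0.56. RHEB had 155 and 131 CPM in DMSO, 78.4 and 86.7 CPM at 0.2 μM and 74.7 CPM at 0.34 μM. All treated libraries were below both controls, a separation that 23.4% of all genes tested showed in this direction. The log2 fold change of RHEB was -0.84 (SE 0.15, adjusted p = 0.0155 by edgeR and 5.53e-05 by DESeq2).

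AMPK subunits and upstream kinases (12 of 13 tested) held no call, with 5 higher and 7 lower estimates and a median of -0.14. PRKAB1 had the highest value of the list and STRADB, a partner of the upstream kinase LKB1, the lowest with -0.49. The other β subunit, PRKAB2, had 23.4 and 13.6 CPM in DMSO, 33.99 and 30.8 CPM at 0.2 μM and 37.9 CPM at 0.34 μM, a log2 fold change of 0.89 (SE 0.26, adjusted p = 0.0678). GATOR1 and KICSTOR (8 genes, 6 higher, 2 lower, median 0.10) held no call, and their values lay between -0.27 for NPRL3 and 0.57 for BMT2. GATOR2 and the amino acid sensors (10 genes, 6 higher, 4 lower, median 0.27) held the calls of SESN1 and SESN2 and no other. The GATOR2 genes went both ways. MIOS had -0.42 (adjusted p = 0.243 by edgeR) and SEH1L -0.32, whereas WDR59 had 0.45, WDR24 0.42 and SEC13 0.15. SESN3 had the lowest estimate of the list.

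Rag GTPases, Ragulator and folliculin, which carry mTORC1 to the lysosome, had 11 higher estimates among 12 tested of 13, where 51.1% of all genes tested were higher, and a median of 0.49. None passed the threshold with edgeR. DESeq2 called LAMTOR1 and LAMTOR4, 2 of the 12, beside 14.1% of all genes it tested. LAMTOR4 had 10.3 and 14.6 CPM in DMSO, 24.0 and 20.6 CPM at 0.2 μM and 23.8 CPM at 0.34 μM, a log2 fold change of 0.88 (SE 0.21, adjusted p = 0.0419 by edgeR), the highest of the list. FNIP1, a folliculin partner, had the lowest with -0.29.

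PI3K-AKT input and its inhibitors (18 genes, 9 higher, 9 lower, median 0.03) held 1 call, or 5.56% of the list beside 4.02% of all genes tested. PHLDA3, a p53 target that blocks AKT at the membrane, had 48.1 and 59.3 CPM in DMSO, 173 and 126 CPM at 0.2 μM and 171 CPM at 0.34 μM. It rose 2.92-fold, a log2 fold change of 1.54 (SE 0.21, adjusted p = 0.00622 by edgeR). The call was lost with any 1 library left out (adjusted p up to 0.0356). PHLPP2, an AKT phosphatase, had the lowest estimate of the list with -0.62. The mTORC1 substrates and effectors (15 of 16 tested, 5 higher, 10 lower, median -0.15) also held 1 call, or 6.67% beside the same 4.02%. Both shares were near that of all genes. EIF4EBP1, the translational repressor 4E-BP1 that mTORC1 phosphorylates and inactivates, had 46.9 and 62.4 CPM in DMSO, 23.0 and 21.4 CPM at 0.2 μM and 17.0 CPM at 0.34 μM. It fell by 1.42 on the log2 scale (SE 0.20, adjusted p = 0.00782 by edgeR), a call likewise lost with any 1 library left out (up to 0.0382). The highest estimate was that of TFEB with 0.92.

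**Figure D5:**
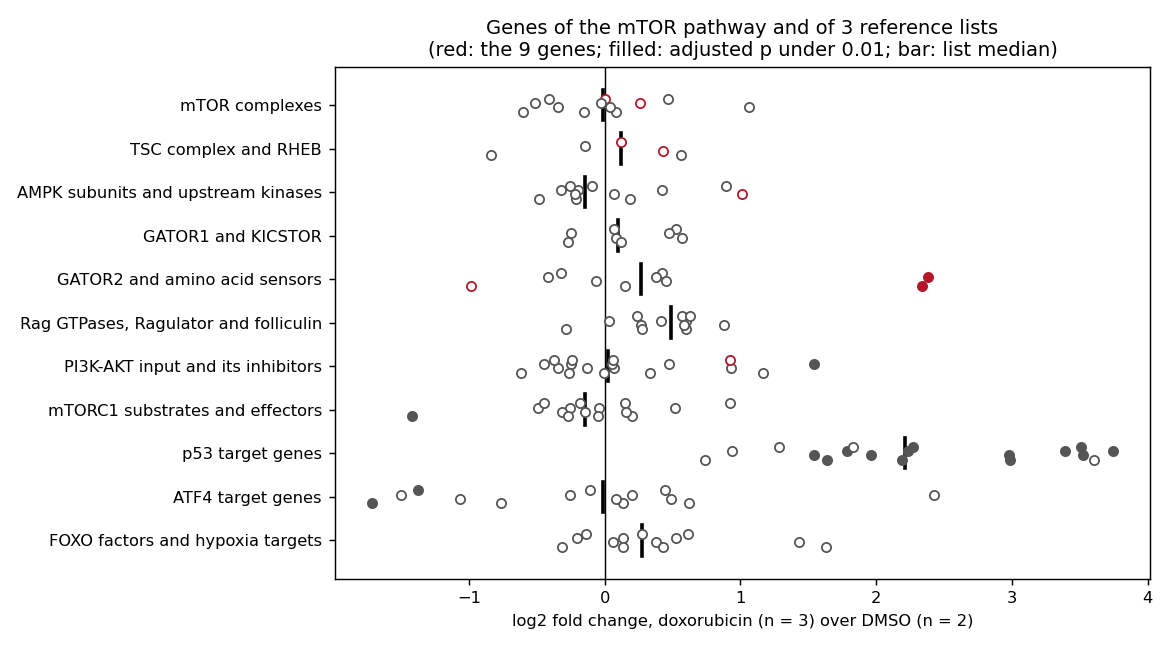
Log2 fold change of each tested gene, doxorubicin over DMSO, in the 8 mTOR pathway lists and in 3 reference lists. The latter are p53 target genes, ATF4 target genes, and FOXO factors with hypoxia targets. The 9 genes are in red, filled circles mark adjusted p under 0.01 by edgeR, and a bar marks each list's median. The mTOR pathway lists have medians between -0.15 and 0.49, and the p53 target genes have 2.21.

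The sestrins and PRKAB1 are known targets of stress-responsive factors, and 3 reference lists were set beside them. These held p53 target genes, ATF4 target genes, and FOXO factors with hypoxia targets. The last held genes of the FOXO factors themselves beside mainly hypoxia-related genes, and was not a list of FOXO target genes. Of 18 p53 target genes, 18 had a higher estimate and 13 rose (1.29% of all genes), with a median of 2.21 and values from 0.74 for DDB2, which did not pass, to 3.75 for FDXR. CDKN1A, the p21 cell cycle inhibitor, rose by 3.39 on the log2 scale (adjusted p = 0.000768 by edgeR), and MDM2, the ubiquitin ligase of p53, by 2.19 (adjusted p = 0.00246). The number of the 18 called was 3 without the first DMSO library, 1 without the second, 7 without the second 0.2 μM library and 8 without the 0.34 μM library. SESN1 and SESN2 had values close to the median of this list, and PRKAB1 and DDIT4 near its lower end. The list was compiled with earlier results of these data known, and whether p53 caused these changes was not tested. Of 14 ATF4 target genes, 7 had a higher and 7 a lower estimate, with a median of -0.01. ASNS, asparagine synthetase, fell by 1.38 on the log2 scale (adjusted p = 0.00274) and PHGDH, of serine synthesis, by 1.72 (adjusted p = 0.00544), the lowest of the list. With 1 library left out ASNS was called in 0 of 5 fits and PHGDH in 1. ATF3 had the highest value with 2.42 (adjusted p = 0.0200). FOXO factors and hypoxia targets (13 genes, 10 higher, 3 lower, median 0.27) held no call by edgeR, with values from -0.32 for HIF1A to 1.63 for NDRG1 (adjusted p = 0.0770). DESeq2 called 2 of the 13, NDRG1 (adjusted p = 0.00263) and ANKRD37 (0.00753), and 4 of the 14 ATF4 target genes, beside 14.1% of all genes.

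The pattern of each called gene over the 5 libraries was compared with those of 11755 genes that had a mean log2 CPM of at least 1, by the root mean square difference of log2 CPM centred on each gene's mean. The 3 nearest to SESN1 were TIGAR at 0.0856, MDM2 at 0.0963 and LACC1 at 0.113, each with its highest value in the second 0.2 μM library, as SESN1 had. TIGAR, a p53-induced fructose bisphosphatase, had 28.4 and 24.5 CPM in DMSO, 99.3 and 150 CPM at 0.2 μM and 125 CPM at 0.34 μM. The 3 nearest to SESN2 were STOM at 0.0807, TSPAN10 at 0.104 and NADSYN1 at 0.132. STOM, a membrane protein, had 21.9 and 23.5 CPM in DMSO, 107 and 130 CPM at 0.2 μM and 119 CPM at 0.34 μM. Over so few libraries the measure mostly reflects the difference between treatments, and it is a description of likeness only.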

How the data were processed

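The authors enriched poly-A RNA, prepared stranded libraries, aligned paired-end reads to hg38 (STAR) and obtained gene-level numbers of reads in Rsubread from the iGenomes annotation. The raw counts of 26485 genes, not normalized, were deposited by the authors for 5 libraries. Tool versions, whether reads were assigned by strand, and how multi-mapping reads were handled are not given in the sources used. A second deposited table holds the authors' own comparison (mean normalized count, log2 fold change, its error, test statistic and p-values) and was not used.

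The analysis used edgeR 4.0.16 under R 4.3.3. After TMM normalization and the default filter (minimum count 10, minimum total 15), a quasi-likelihood test without covariates was fitted to 14187 genes, with 3 doxorubicin against 2 DMSO libraries. A gene was called at a Benjamini-Hochberg adjusted p under 0.01 over all genes tested. The SE is the size of the log2 fold change over the root of the F statistic, and a prior count of 2 entered log2 CPM. DESeq2 1.42.0 and limma 3.58.1 (voom) were alternatives, beside other normalizations, no filter, a threshold of 0.05, thinned counts, single doses, a replicate block and leaving out each library. The pipeline was tested on simulated data. Transcript lengths are those of the Ensembl canonical transcript in GENCODE v44 (for DDIT4 the longest transcript). Gene positions and promoters come from RefSeq on GRCh38.p14.

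The 9 genes and all lists were chosen with earlier results of these data known. Named in the text are the 9 genes, CDKN1A and MDM2, and the 3 genes nearest in pattern to each called gene. From each list the genes past the threshold (at most 4) and those with the highest and lowest fold change are named too. The p53 target genes depart from this, as BTG2 and TP53I3, with log2 fold changes of 3.53 and 3.51, were called but not discussed. PRKAB2, the GATOR2 genes, LAMTOR1, ANKRD37, IRS2 and the overlapping genes were added after values were seen. Library totals were 23773061 to 36725345 counts, and depth limits DEPTOR, which had at most 33 counts in a library.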

Additional observations from a re-analysis of the deposited data

How the results depend on the processing

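Of the 9 genes, 2 were called by edgeR, and this count was 2 or 3 under DESeq2, limma voom, other size factors, library totals, no filter, a threshold of 0.05, thinned counts and 0.2 μM alone. With 1 library left out it ranged from 0 to 2. Without the first DMSO library SESN1 missed the threshold (adjusted p = 0.0168, edgeR), and without the second both SESN1 (0.0221) and SESN2 (0.0110) did, although their log2 fold changes stayed within 2.16 to 2.48 and 2.29 to 2.44. Those fits have 1 control library, and all genes called numbered 215 and 49 in them against 571. PRKAB1 passed with DESeq2 and at 0.05. The count at 0.2 μM ranged from 0 to 2 with 1 library left out (1 without the second DMSO library), and that at 0.34 μM was 2 with DESeq2 and 0 to 2 with 1 library left out. Of the other 83 pathway genes 2 were called, against 7 with DESeq2, 4 without the filter, 6 at 0.05, 0 at 0.2 μM and 0 with any library left out. PHLDA3 and EIF4EBP1 then had adjusted p between 0.010 and 0.0356 and between 0.0151 and 0.0382. The cause of these moves was not tested, and leaving out a library changes both how many and which libraries are compared.

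With 1 library left out the log2 fold change of TSC1 ranged from -0.031, without the second DMSO library, to 0.26. The log2 fold change of MTOR changed from -0.00093 to 0.0042 with limma voom, 0.0012 without the filter, 0.0060 with thinned counts, 0.0020 at 0.2 μM, and -0.13, 0.11, 0.021 and 0.0048 without the first DMSO, the second DMSO, the first 0.2 μM or the 0.34 μM library, all within its interval. The median over all genes was 0.14 with DESeq2 and 0.15 without the filter. All genes called numbered 2026 with DESeq2, 1020 without the filter and 1927 at 0.05. The low counts of DEPTOR limit its precision. With 1 library left out SESN3 ranged from -1.75 to -0.13 and DDIT4 from 0.53 to 1.43.

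The labels number only the second libraries of DMSO and 0.2 μM, and with 2 pairs the numbers do not establish a pairing. The rep 1 minus rep 2 differences of both conditions had a correlation of 0.53 across genes, which are not independent replicates. With the replicate block on those 4 libraries 2 of the 9 genes and 3 of the other 83 were called, MTOR had 0.011, and 1249 of all genes were called against 178 for the same libraries without the block. SESN3 then had -0.78 (adjusted p = 0.0589), DDIT4 0.86 (0.0211) and PRKAB1 0.98 (0.0103). Of the FOXO factors and hypoxia targets 1 was called with the block and 2 with DESeq2, against 0.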

Other observations

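Ratios between subunits of one complex were computed within each library, on the scale of CPM per kilobase of transcript. The log2 ratio of TSC2 to TSC1 was 0.98 and 1.19 in the DMSO libraries, 1.45 and 1.29 at 0.2 μM and 1.43 at 0.34 μM, with all treated libraries above both controls. That of PRKAB1 to PRKAB2, the β subunits of AMPK, was 0.93 and 1.92 in DMSO, 1.17 and 1.91 at 0.2 μM and 1.36 at 0.34 μM, with overlapping groups and the second library the higher in both pairs. These ratios were not tested.

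IRS2, an adaptor of the insulin receptor upstream of PI3K and chosen here after its values were seen, had 47.8 and 61.8 CPM in DMSO, 101 and 145 CPM at 0.2 μM and 123 CPM at 0.34 μM. Its log2 fold change was 1.17 (SE 0.21), with an adjusted p of 0.0165 by edgeR and 2.93e-05 by DESeq2. Like SESN1 and PRKAB1, it was highest in the second 0.2 μM library.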
